A study of Rattus norvegicus with 16 samples.

Results

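Camp, the gene for the cathelicidin antimicrobial peptide stored in neutrophil granules, differed widely in the whole blood of control rats, and the 5 libraries highest in Camp were compared here with the 5 lowest, so that 10 of the 16 saline control libraries entered the comparison. The members were found by rank: counts of the 18031 genes listed for every library were rounded, divided by DESeq2 median-of-ratios size factors over the 16 libraries (a "normalized count" below) and ordered by Camp. The 2 sets of libraries are therefore defined by a measured value and not by a label, all 16 rats belong to one labelled group, and a gene called higher or lower is one whose level went with that of Camp among these animals. All were male Sprague-Dawley rats from Charles River, 85 to 90 days old, with 4 injections of 1 ml/kg normal saline given at intervals of 2 h, and without food or water from the first injection on. Blood was taken by needle from the heart 3 h after the last injection, depleted of alpha and beta globin mRNA, and sequenced after selection of polyadenylated RNA. No gene was deleted and no drug was given in any of them, and every library came from 1 animal.

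Neutrophils are the granulocytes that reach an injured or infected site first. They are made in the bone marrow, where the proteins of their granules are produced in a fixed order as the cell matures, and they leave it in larger numbers under stress, under glucocorticoids and in infection. Camp, Mmp8 and Lcn2 belong to the later granules, while Mpo, Elane, Prtn3 and Ctsg are made early, mostly in marrow. Ccr1 is a receptor for inflammatory chemokines and Nos2 the inducible nitric oxide synthase. The study counted both as monocyte genes, but neutrophils of the rat can express them as well.

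In order of Camp, controls 8, 14, 15, 7 and 9 had 6354, 4686, 3867, 1966 and 1927 normalized counts and formed the Camp-high set. Controls 1, 16, 2, 4 and 6 had 319, 299, 266, 217 and 125 and formed the Camp-low set. The 6 libraries between them were controls 13, 11, 5, 3, 12 and 10, with 1297, 1148, 626, 401, 354 and 349. The set means were 3760 ± 1883 and 245 ± 77.6 (SD, n = 5 each), a ratio of 15.4, and the whole range over 16 libraries was 51.0-fold. These values chose the libraries and are a description. The upper limit fell between 1927 (control 9, inside) and 1297 (control 13, outside), whereas the lower limit separated 319 (control 1) from 349 (control 10), a difference of few counts. With Camp as CPM (counts scaled to one total) in place of normalized counts, control 10 took the place of control 1 and the Camp-high set held the same 5 libraries.

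The libraries held 21466776 to 31189549 estimated counts. They carry 6 codes in the names of the deposited files, written A to F and called run codes here. What a code stands for is not given in the sources used here. A run named below means only libraries that share a code. Run B gave controls 7 and 8 to the Camp-high and control 4 to the Camp-low set, and run C gave control 9 to the first and control 6 to the second. Controls 14 (run D) and 15 (run E) were Camp-high, and controls 1 and 2 (run A) and 16 (run F) were Camp-low, so that for these 5 libraries run code and Camp cannot be told apart. The study repeated its experiment over time, but the labels tie no library to a repeat, and the repeats were therefore not separated here. Control 2 stood apart in liver transcripts, with 330254 normalized counts of Alb (albumin), followed by control 8 with 11403, control 7 with 3102 and control 5 with 1793. The other 12 libraries had 3.74 to 71.4. Control 2 is Camp-low and controls 7 and 8 are Camp-high.

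**Figure D1:**
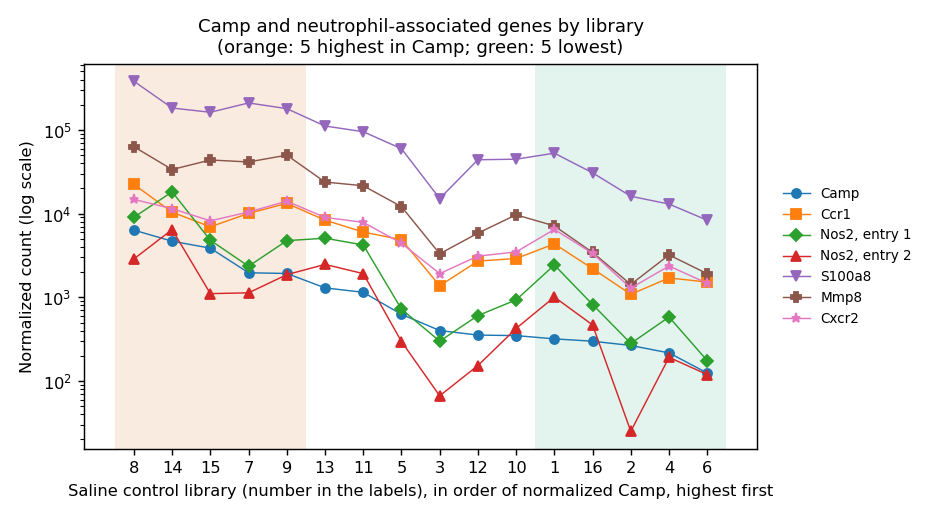
Normalized counts (log axis) of Camp, Ccr1, both entries of Nos2, S100a8, Mmp8 and Cxcr2 in each of the 16 saline control libraries, placed from left to right in order of Camp. Each point is 1 library, and lines join the points of a gene; Camp falls from 6354 to 125 by construction, and the other genes, which took no part in the ordering, are high on the left and low on the right, with a second rise at control 1 in all but Mmp8.

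Ccr1 (ENSRNOG00000006715) was 5.79-fold higher in the Camp-high libraries. Controls 8, 14, 15, 7 and 9 had 22341, 10410, 6965, 10072 and 13269 normalized counts, and controls 1, 16, 2, 4 and 6 had 4349, 2203, 1086, 1707 and 1521. The sets did not overlap, and control 8 had the highest and control 2 the lowest value of the 10. The log2 fold change was 2.53 ± 0.41 (SE, edgeR quasi-likelihood adjusted p = 0.0072). Of 21 alternative fits, 2 lost this call. Ccr1 and Nos2 were set as markers of this comparison with earlier results of these data known. Their tests are therefore not independent evidence.

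Nos2 is listed with 2 entries, which may share reads. For the first (ENSRNOG00000011023), controls 8, 14, 15, 7 and 9 had 9051, 18232, 4807, 2351 and 4757 normalized counts, and controls 1, 16, 2, 4 and 6 had 2432, 820, 281, 582 and 175. The sets overlapped here, since control 1 lay above control 7. The log2 fold change was 3.19 ± 0.75 (SE, edgeR adjusted p = 0.025), and 9 of 21 alternatives lost the call. The second entry (ENSRNOG00000049980) ran from 1107 to 6459 in the Camp-high and from 25.1 to 1008 in the Camp-low libraries without overlap, but its difference of 2.90 ± 0.83 (log2, SE) missed the threshold, at an edgeR adjusted p of 0.051.

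Over all genes, 12030 were tested with Camp left out, of which 871 (7.24%) were higher and 137 (1.14%) lower in the Camp-high libraries, 8.38% in all (edgeR quasi-likelihood test, Benjamini-Hochberg adjusted p under 0.05). At an unadjusted p under 0.05 there were 1796 (14.9%) and 1415 (11.8%). The values of the 2 sets did not overlap for 801 genes (6.66%) in the higher and 325 (2.7%) in the lower direction. The median log2 fold change of all genes was -0.04. With the run code as a covariate, which leaves 3 residual degrees of freedom, 0 genes passed in either direction (1603 and 1467 at an unadjusted p under 0.05). Without controls 2 and 8, which hold the most liver transcripts, 217 were higher and 7 lower, and without control 7 as well, chosen after seeing the data, 42 and 0. Leaving out single libraries gave 332 higher genes without control 4, 438 without control 8 and 456 without control 6. The 1008 genes called kept their sign in each alternative that gave them a value. These fits share most of their libraries with the main comparison, so the sign was not free to differ widely.

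**Figure D2:**
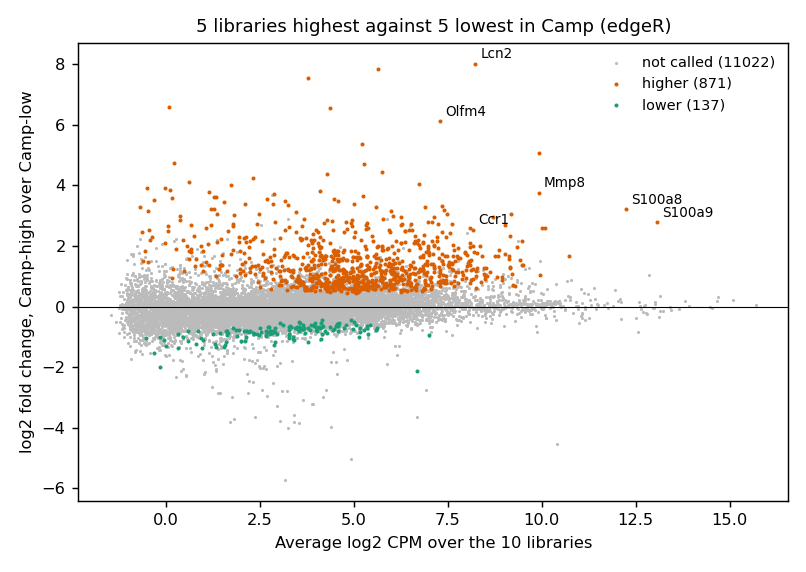
Log2 fold change between the 5 Camp-high and the 5 Camp-low libraries (vertical axis) against the average log2 CPM (horizontal axis) of the 12030 genes tested. Each point is 1 gene, with the 871 genes called higher in orange and the 137 called lower in green; the higher genes reach 8.02 (Lcn2), and the lower ones mostly stay within about 1 log2 unit of 0.

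Genes of neutrophil granules were the list that differed most. Of 17 entries tested, 12 were higher and 0 lower, beside 7.24% and 1.14% of all genes, with a median log2 fold change of 2.79 against -0.04 for all genes. Bulk blood cannot tell more neutrophils from more RNA per neutrophil. Mmp8 (ENSRNOG00000009907), the neutrophil collagenase, had 63069, 33684, 43789, 41479 and 50038 normalized counts in controls 8, 14, 15, 7 and 9, and 7135, 3439, 1425, 3211 and 1915 in controls 1, 16, 2, 4 and 6. Each Camp-high library was above each Camp-low one, by 3.76 ± 0.43 on the log2 scale (SE, edgeR adjusted p = 0.0017), and of 21 alternatives the run covariate took the call away. S100a8 and S100a9, the subunits of calprotectin that fill the neutrophil cytosol, were far more abundant. S100a8 (ENSRNOG00000011557) averaged 223703 ± 90312 normalized counts in the Camp-high and 24222 ± 18063 in the Camp-low libraries (SD, n = 5 each), without overlap and with control 8 highest at 382335. The log2 fold changes were 3.20 ± 0.50 for S100a8 and 2.79 ± 0.48 for S100a9 (SE, edgeR adjusted p = 0.0062 and 0.0082).

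The other granule genes called were Cd177, Olfm4, Pglyrp1, Mmp9, Mmp25, Retnlg, Chi3l1, Elane and Lcn2. The call of Chi3l1 was lost in 14 of 21 alternatives. Pglyrp1, which binds bacterial peptidoglycan, differed by 3.05 ± 0.45, and Mmp9, a gelatinase, by 3.31 ± 0.56 (log2, SE, edgeR adjusted p = 0.0055 and 0.0077). Elane, the neutrophil elastase, differed by 2.31 ± 0.47 (SE, edgeR adjusted p = 0.014), but at a low level, with means of 162 and 32.6 normalized counts. The tested members not called were Hp, Lyz2, Ngp, Orm1 and Slpi, whose log2 fold changes of 1.03 to 2.44 had edgeR adjusted p of 0.058 to 0.70. The remaining 8 entries did not pass the filter on low counts. Among them, Mpo averaged 1.3 and 10 normalized counts in the Camp-high and Camp-low libraries, Ltf 6.4 and 6.1, Ctsg 0.2 and 0, and Prtn3 0.25 and 0.53, so that 3 of the 4 early granule genes named above were nearly undetected in both sets. Retn, also among the 8 and not tested, averaged 160 and 2.0, with at most 765 and 3.75 in any library of the set, and Bpi 11.6 and 4.4.

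Below are the 250 bases before the annotated start of 4 of these genes, shown because Camp set the ranking and Ccr1, Mmp8 and Lcn2 are among the genes that went with it; they are RefSeq sequences of the build GRCr8 and not of rn5, on which the counts were made. Capitals mark matches to TTGCNNAA, a form of the site of C/EBP factors, or GAGGAA, the core of many PU.1 sites, on either strand. Camp lies at chr8:118721999-118722248, Ccr1 at chr8:132439267-132439516 and Lcn2 at chr3:36081781-36082030 on the minus strand, and Mmp8 at chr8:13008640-13008889 on the plus strand.
Camp: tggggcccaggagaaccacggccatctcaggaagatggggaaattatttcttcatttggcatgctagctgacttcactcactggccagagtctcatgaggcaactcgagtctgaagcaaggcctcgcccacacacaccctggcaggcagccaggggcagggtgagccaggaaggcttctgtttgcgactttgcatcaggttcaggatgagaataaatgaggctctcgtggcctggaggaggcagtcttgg
Ccr1: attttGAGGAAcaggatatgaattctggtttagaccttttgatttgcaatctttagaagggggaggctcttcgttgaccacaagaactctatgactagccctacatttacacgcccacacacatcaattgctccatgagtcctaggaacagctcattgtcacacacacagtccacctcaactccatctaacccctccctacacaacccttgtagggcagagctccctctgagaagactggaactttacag
Mmp8: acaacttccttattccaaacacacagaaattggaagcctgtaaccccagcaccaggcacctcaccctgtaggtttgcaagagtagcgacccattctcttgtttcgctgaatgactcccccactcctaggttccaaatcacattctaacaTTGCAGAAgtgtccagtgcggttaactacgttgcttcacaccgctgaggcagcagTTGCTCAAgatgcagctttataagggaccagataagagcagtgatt
Lcn2: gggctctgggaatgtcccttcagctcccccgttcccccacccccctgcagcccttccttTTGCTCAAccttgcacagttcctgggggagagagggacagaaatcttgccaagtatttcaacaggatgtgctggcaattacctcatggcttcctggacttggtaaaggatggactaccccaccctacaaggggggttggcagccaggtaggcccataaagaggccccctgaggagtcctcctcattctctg
Camp had 0 matches, Ccr1 1 match to GAGGAA, Mmp8 2 to TTGCNNAA and Lcn2 1 to TTGCNNAA. Of the genes called higher, 659 had a promoter in the RefSeq table, and TTGCNNAA was found in 7.89% of them, against 7.56% of the promoters of all genes tested and 9.20% of the 27457 promoters in the table. GAGGAA was found in 28.8%, 23.1% and 23.2%. For the 107 genes called lower with a promoter the shares were 11.2% and 27.1%. Both motifs were picked with the results known, no test was made, and a match is not evidence of binding.

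The 10 genes named for the largest rise were Lcn2, Irg1, Gpr84, Olfm4, Ifitm6, Serpinb1a, Cd177, Ebi3, Plscr1 and Mmp8, taken from the 546 called genes that had a symbol, averaged 3 or more in log2 CPM and did not overlap between the sets. Lcn2 (ENSRNOG00000013973), the iron-binding lipocalin of neutrophil granules, had 40143 and 34711 normalized counts in controls 8 and 14, but 406, 242 and 1427 in controls 15, 7 and 9. The Camp-low libraries had 138, 33.8, 42.1, 45.4 and 32.7 in controls 1, 16, 2, 4 and 6. Its log2 fold change, 8.02 ± 1.56 (SE, edgeR adjusted p = 0.012), thus rests mostly on a pair of libraries, although the other 3 also lay above every Camp-low library.

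Irg1, which makes itaconate in activated phagocytes, showed the same split. It had 6861 and 5541 normalized counts in controls 8 and 14, 269, 89.9 and 184 in controls 15, 7 and 9, and 5.16 to 20.01 in the Camp-low libraries (log2 fold change 7.84 ± 1.39, SE, edgeR adjusted p = 0.0082). Gpr84, a receptor for medium-chain fatty acids, had 2883 and 2061 in that pair, 49.95 to 149 in the other Camp-high and 4.42 to 26.3 in the Camp-low libraries. Ebi3, a subunit of interleukin-27 and interleukin-35, had 6227 and 6091, then 250 to 362, then 90.8 to 152. In contrast, Ifitm6 ran more evenly through the Camp-high libraries, from 929 in control 7 to 3908 in control 8, and from 17.0 to 92.3 in the Camp-low ones. Olfm4, a granule protein found in some neutrophils, ran from 1869 to 18471 and from 51.0 to 271 (log2 fold change 6.11 ± 0.79, SE, edgeR adjusted p = 0.0034).

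A screen made after these values were seen looked for genes in which both control 8 and control 14 had at least 4 times the normalized count of every other library, and at least 20. Of the 18031 genes, 13 met it: Lcn2, Car4, Irg1, Ebi3, Hmx3, Gpr84, Saal1, Abca13, Zfhx2, Ppm1n, Itga8, Ptx3 and Gas7. Car4, a membrane carbonic anhydrase, had 2002 and 1412 against at most 61.2 elsewhere, in control 7. Saal1 had 2750 and 2532 against at most 244, in control 11. These 2 libraries carry different codes, B and D.

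**Figure D3:**
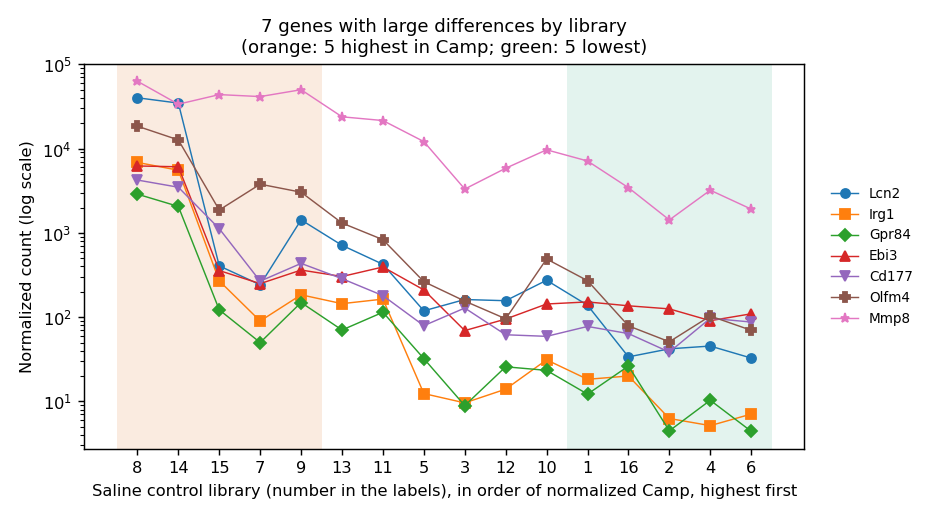
Normalized counts (log axis) of Lcn2, Irg1, Gpr84, Ebi3, Cd177, Olfm4 and Mmp8 in the 16 libraries in order of Camp, each point 1 library. Lcn2, Irg1, Gpr84 and Ebi3 drop steeply after controls 8 and 14, whereas Mmp8 stays between 33684 and 63069 in the 5 Camp-high libraries.

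Surface receptors and signalling genes of neutrophils also went with Camp. Of 18 tested, 11 were higher and 0 lower, beside 7.24% and 1.14% of all genes, with a median log2 fold change of 1.73. Cxcr2 (ENSRNOG00000014269), the receptor for neutrophil-attracting chemokines, had 14785, 11471, 8208, 10456 and 14100 normalized counts in controls 8, 14, 15, 7 and 9, and 6481, 3352, 1289, 2369 and 1471 in controls 1, 16, 2, 4 and 6. The sets did not overlap, and control 1 lay closest to the Camp-high libraries (log2 fold change 1.98 ± 0.41, SE, edgeR adjusted p = 0.015). Fpr1, the receptor for bacterial formyl peptides, differed by 3.38 ± 0.38 and Trem1, which amplifies inflammatory signals, by 1.91 ± 0.39 (log2, SE, edgeR adjusted p = 0.0017 and 0.014). Csf3r, the receptor for the growth factor of granulocytes, differed by 1.49 ± 0.49 (log2) and the integrin subunit Itgb2 by 0.41 ± 0.22 (SE, edgeR adjusted p = 0.077 and 0.27), neither called.

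Of the phagocyte NADPH oxidase, the subunits Ncf1 and Cyba were higher, by 1.25 ± 0.29 and 1.16 ± 0.27 (log2, SE, edgeR adjusted p = 0.022 and 0.025), while the catalytic subunit Cybb had 0.38 ± 0.31 (SE, edgeR adjusted p = 0.48). Of 12 transcription factors of myeloid cells, Spi1, which encodes PU.1, and Cebpd were higher, by 1.39 ± 0.37 and 1.88 ± 0.41 (log2, SE, edgeR adjusted p = 0.040 and 0.019). The median of these 12 was -0.07, and 7.24% of all genes were called higher. The call of Spi1 was lost in 13 and that of Cebpd in 5 of 21 alternatives. Cebpe, needed for the late granules, averaged 29.8 and 30.5 normalized counts (log2 fold change -0.04 ± 0.31, SE, edgeR adjusted p = 0.96).

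In the interleukin-1 system, 5 of 11 genes tested were higher and 0 lower, beside 7.24% and 1.14% of all genes, with a median of 1.28. They were Il1r1, the decoy receptor Il1r2, the co-receptor Il1rap, the receptor antagonist Il1rn and the inflammasome sensor Nlrp3. The sets overlapped in Nlrp3, and 12 of 21 alternatives lost its call. Il1r2 averaged 26712 ± 12618 and 3223 ± 3523 normalized counts (SD, n = 5 each), and its lowest Camp-high value of 17590 (control 9) lay above the highest Camp-low value of 9341 (control 1). Il1rn differed by 2.70 ± 0.55 (log2, SE, edgeR adjusted p = 0.014). The cytokine Il1b had means of 29642 and 12169 and was not called (1.28 ± 0.43, SE, edgeR adjusted p = 0.084). Of 15 genes of Toll-like receptor signalling, 6 were higher (Tlr2, Tlr4, Tlr6, Tlr10, Myd88 and Irak4) and 0 lower, with a median of 1.01. Tlr2, which senses bacterial lipoproteins, had 6638 to 9423 normalized counts in the Camp-high and 808 to 3133 in the Camp-low libraries (2.43 ± 0.37, SE, edgeR adjusted p = 0.0056).

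Among 11 entries for arginine and nitric oxide metabolism, 3 were higher (the first Nos2 entry, Arg2 and Ddah1) and 0 lower, with a median of 0.96. Of all genes, 7.24% were called higher and 1.14% lower. Arg2, the mitochondrial arginase, had 293, 513, 112, 373 and 377 normalized counts in controls 14, 8, 15, 7 and 9, and 14.1 to 111 in the Camp-low libraries, so that control 15 and control 1 nearly met. In Ddah1 the sets overlapped, and 13 of 21 alternatives lost its call. Arg1, the liver arginase, did not pass the filter on low counts. Of 16 chemokine receptors tested, Ccr1 and Cxcr2 were the 2 called, and the median of the list was -0.34.

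Monocyte genes gave a mixed picture. In the study's own list, 2 of 6 entries tested were higher (Ccr1 and Nos2) and 0 lower, beside 7.24% and 1.14% of all genes, with a median of 2.08. Both had been set as markers of this comparison with earlier results known, so they are not independent evidence of the list's direction. The median rests in part on them, since Ccr1 and both Nos2 entries are among the 6. Cd14, a co-receptor for bacterial lipopolysaccharide, differed by 1.64 ± 0.48 (log2, SE, edgeR adjusted p = 0.056) and was not called. Cd68, a lysosomal protein of macrophages, and Itgax, an integrin subunit, had log2 fold changes of -0.13 ± 0.30 and 0.00 ± 0.18 (SE, edgeR adjusted p = 0.82 and 0.99). Of 13 other monocyte genes, Lgals3, Fcgr1a and Msr1 were higher and Cd4 was lower, with a median of -0.01. Of 21 alternatives, 8 lost the call of Lgals3, 9 that of Fcgr1a and 12 that of Msr1, in which the sets overlapped. Vcan, a proteoglycan, had 1.51 ± 0.44 (log2, SE, edgeR adjusted p = 0.056). The receptor genes Csf1r and Cx3cr1, on which monocytes depend, had log2 fold changes of -0.48 ± 0.25 and -0.74 ± 0.37 (SE, edgeR adjusted p = 0.25 and 0.23).

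**Figure D4:**
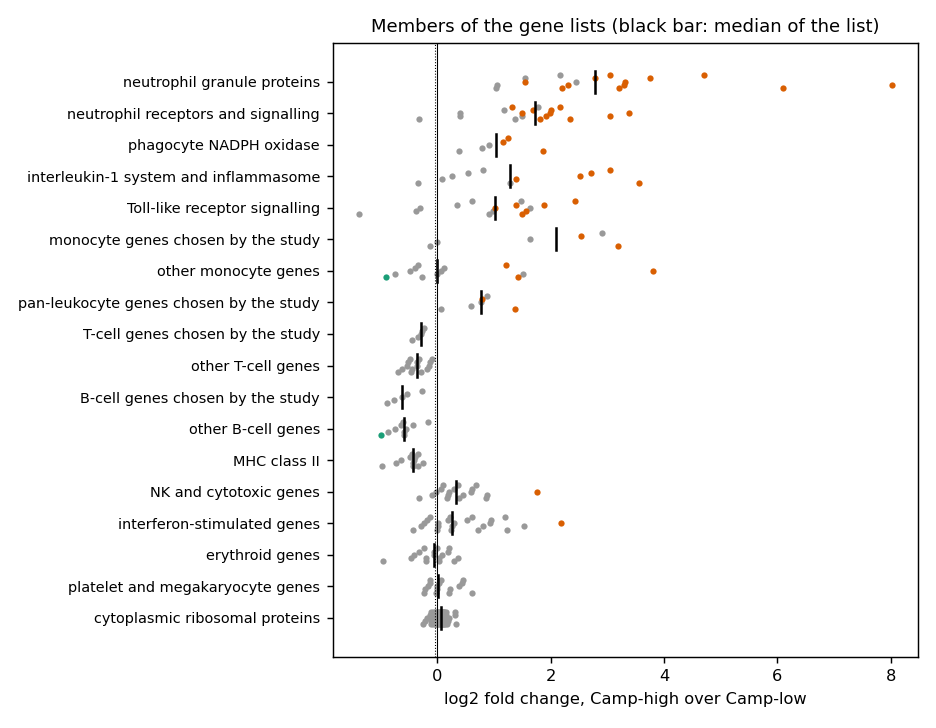
Log2 fold change between Camp-high and Camp-low libraries (horizontal axis) of each tested member of 18 gene lists, with genes called higher in orange, called lower in green and not called in grey. Black bars are list medians and the dotted line is the median of all genes tested (-0.04). The 2 neutrophil lists (2.79 and 1.73) and the study's monocyte list (2.08) lie farthest right. The 6 entries of that monocyte list include Ccr1 and both Nos2 entries, which were set as markers beforehand. The T-cell, B-cell and MHC class II lists lie left of 0.

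Lymphocyte genes tended to the other side, nearly all without a call. All 5 T-cell genes and all 5 B-cell genes of the study's lists had negative log2 fold changes, with medians of -0.29 and -0.62, and 0 of them were called. The same held for 15 other T-cell genes (median -0.36, 0 called) and 12 entries of MHC class II (median -0.44, 0 called). RT1-DMa and RT1-DMb are among the latter with 2 entries each of equal values. Of all genes tested, 7.24% were called higher and 1.14% lower. For lists this short 0 calls are near these shares and are not a result about the lists. Of 10 other B-cell genes, Fcer2, the low-affinity receptor for IgE, was lower (-1.0 ± 0.27, SE, edgeR adjusted p = 0.044), with 393 to 890 normalized counts in the Camp-high and 848 to 1730 in the Camp-low libraries and therefore some overlap. The call of Fcer2 was lost in 14 of 21 alternatives. Size factors tie the genes of a library together, so a higher level of some genes and a lower relative level of others are not independent.

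The lists for cytotoxic cells and for interferon held 1 gene called higher each. That is near the share of all genes tested (7.24%), so these counts are not a result about the lists. Of 18 genes of NK and cytotoxic cells, Cst7 was higher (1.77 ± 0.40, SE, edgeR adjusted p = 0.022) and 0 lower, with a median of 0.32. Cst7, the inhibitor cystatin F, had 1428 and 1548 normalized counts in controls 8 and 14 against 447 to 597 in the other Camp-high libraries. From the study's list for all leukocytes, Cd48, a surface protein of most blood cells of that kind, was higher (0.78 ± 0.17, SE, edgeR adjusted p = 0.019). Of 23 interferon-stimulated genes, the chemokine Cxcl10 was higher (2.18 ± 0.49, SE, edgeR adjusted p = 0.022), and the median was 0.26.

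Genes of the other blood cells did not pass the test. None of 17 erythroid, 16 platelet, 8 globin, 81 cytoplasmic ribosomal protein, 5 early lymphoid or 11 eosinophil, basophil and mast cell entries was called by edgeR, with medians of -0.06, 0.01, 0.12, 0.06, -0.19 and 0.45. Of all genes tested, 7.24% were called higher and 1.14% lower. In the shorter lists 0 calls are near these shares and are not a result about the lists. The globin share of the counts was 7.97% ± 3.13 in the Camp-high and 8.67% ± 5.15 in the Camp-low libraries, and the ribosomal share 5.67% ± 0.36 and 6.12% ± 0.93 (SD, n = 5 each). For these 2 measures, the total count, the share of the 20 highest genes and the number of genes with a count, exact two-sided permutation tests gave adjusted p of 0.87 to 0.98 (smallest unadjusted p possible 0.0079). Of the cardiac muscle genes, Tnnc1 alone was high enough to test and was higher (1.77 ± 0.41, SE, edgeR adjusted p = 0.022). The others averaged at most 11 normalized counts in either set, among them Mb (7.6 and 6.6), which marks heart tissue in blood drawn through the heart. Of 5 liver and 5 fat genes tested, 0 were called, with medians of -1.31 and 0.28. The liver gene Tf had 13452 to 43325 normalized counts in the Camp-high libraries. Among the Camp-low ones it had 54857 in control 2 and 3218 to 11892 in the others. Its log2 fold change was 0.78 ± 0.71 (SE, edgeR adjusted p = 0.52), and 1 of 21 alternatives called it.

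The 10 genes named for the largest fall were Snx8, Ighg3, Ppp1r12b, Mettl7a, Dgka, Mutyh, Adsl, Cd4, Inadl and Ptprs, from 60 that met the same criteria. Snx8, a sorting nexin of endosomes, had 154, 229, 226, 214 and 259 normalized counts in controls 8, 14, 15, 7 and 9, and 561, 421, 609, 345 and 510 in controls 1, 16, 2, 4 and 6. It was 2.26-fold lower in the Camp-high libraries (log2 fold change -1.18 ± 0.20, SE, edgeR adjusted p = 0.0076). Cd4, the co-receptor of helper T cells that rat monocytes also carry, had 516, 868, 688, 859 and 754 against 1388, 1371, 905, 1661 and 1615 (-0.91 ± 0.20, SE, edgeR adjusted p = 0.018). Dgka, a diacylglycerol kinase abundant in T cells, had 1605 to 2648 against 3320 to 6619 (-0.96 ± 0.23, SE, edgeR adjusted p = 0.025). For the other 7 the log2 fold changes were -0.87 to -1.10. Of 21 alternatives, 2 lost the call of Snx8 and 4 that of Cd4, whereas 8 to 17 lost that of each of the other 8.

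The 6 middle libraries took no part in the comparison. Over them, Spearman's rho with Camp was above 0 for 794 of the 871 genes called higher (91.2%, median 0.77), compared with 48.4% of all genes that could be ranked. It was below 0 for 81 of the 137 genes called lower (59.1%, median -0.09), compared with 51.6% of all genes. For example, Mmp8 had 23864, 21548, 12124, 3315, 5853 and 9685 normalized counts in controls 13, 11, 5, 3, 12 and 10, and S100a8 had 111473, 95344, 59735, 15173, 44070 and 44764. In both genes control 3, which had more Camp than controls 12 and 10, was the lowest. Controls 13, 11 and 12 share run D, controls 5 and 10 run B, and genes of one library are not independent of each other.

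**Figure D5:**
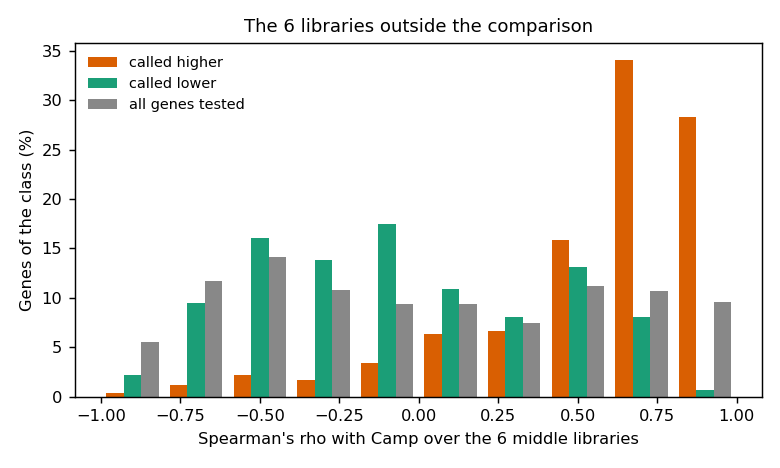
Share of genes (vertical axis, in percent of each class) by Spearman's rho with Camp over the 6 middle libraries (horizontal axis), for genes called higher (orange), called lower (green) and all genes tested (grey). Genes called higher gather at high rho (median 0.77), while genes called lower lie around 0 (median -0.09) and all genes around -0.03.

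Within run B, controls 7 and 8 were on average higher than control 4 in 871 of the 871 genes called higher, and within run C control 9 was higher than control 6 in 870. Of all genes tested, 51.2% and 48.8% were higher. Of the 137 genes called lower, 136 were lower in both runs. These libraries helped to make the calls, so the direction was not free to differ widely. For Ccr1 the 2 libraries of run C had 13269 and 1521 normalized counts, for Mmp8 50038 and 1915, and for Cxcr2 14100 and 1471.

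The genes whose level followed Camp most closely over all 16 libraries, among those with a mean of at least 100 normalized counts, included Adprm, Mettl9, Ugt8, Ifitm6, Nfe2l2, Tmem165, Plp2, Lilrc2 and Ctsc, with Pearson's r of 0.970 to 0.951 on the log2 scale. The libraries that set the comparison are among the 16, and the points share library, run and size factor, so these values are a description. Mettl9 had 10183, 6487, 5017, 5176 and 5442 normalized counts in controls 8, 14, 15, 7 and 9, from 739 to 3219 in the middle libraries, and 1217, 968, 689, 653 and 638 in controls 1, 16, 2, 4 and 6. Its order over the Camp-low libraries was that of Camp. Nfe2l2, the transcription factor NRF2 of the oxidant response, ran from 8008 in control 8 to 874 in control 6. Ctsc, the protease that activates the serine proteases of granules, ran from 3177 to 8584 and from 1056 to 2469, the latter in control 2. Ccr1 and the first Nos2 entry had r of 0.898 and 0.890.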

How the data were processed

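Whole blood RNA of 16 saline control rats was analysed, and all have the same label. The members compared and the gene lists were chosen with earlier results of these data known. The authors clipped the reads, aligned them with Bowtie 0.12.9 to the Ensembl rat transcriptome (rn5) after base calling with CASAVA 1.8.2, and deposited gene-level estimated counts made with RSEM 1.2.0 (versions also in the submitters' processing notes). These expected counts are not normalized; RSEM divides a read among the transcripts it fits, so that entries of near-identical genes are uncertain, and per library 19.3% to 27.1% of the values had decimals. Outlying values, which the study replaced, were left in.

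The counts of the 18031 genes listed for every library (of 26405 in any) were rounded to whole numbers. In each library they held 99.99% of the counts or more. The 5 libraries highest and the 5 lowest in normalized Camp were compared with edgeR 4.0.16 (R 4.3.3), using TMM scaling, filterByExpr and the quasi-likelihood F-test, with Benjamini-Hochberg adjusted p under 0.05 over all genes tested and Camp left out. The code was tested on simulated counts. P-values measure the spread between animals after a choice of animals by Camp. Of each gene list, members called, or the 2 most abundant where none was called, were named, up to 4 a list, besides the 10 largest changes in each direction and the 10 genes most like Camp in Pearson's r of log2(normalized count + 1); further members are named to complete a list. Per-library measures were compared with exact permutation tests (252 assignments). DESeq2 1.42.0 was an alternative, along with other scalings, filters, set sizes and libraries left out. Total counts set the precision, at 21466776 to 31189549 per library. Python 3.11.15, numpy 2.4.6, pandas 2.3.3, scipy 1.17.1 and matplotlib 3.10.9 were used. Promoters came from RefSeq (GRCr8), matched by Ensembl identifier first and otherwise by symbol or synonym. Some genes that the naming rule picks are not reported here.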

Additional observations from a re-analysis of the deposited data

Results flagged for a closer look

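Within the sets of 5 libraries, 196 comparisons of the highest and lowest library with the others were made for the named genes and library measures, and in 21 of them a library stood farther from the rest than Dixon's 95% critical value of 0.71 (gap over range). About 9.8 would do so by chance, and genes of one library are not independent. Whether any of these gaps is technical was not tested.

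Control 1, just inside the Camp-low set, was the highest of that set by more than this limit in 9 genes. It had 2432 normalized counts of Nos2 (first entry; next library 820), 138 of Lcn2 (45.4), 271 of Olfm4 (103), 4077 of Serpinb1a (1296), 9341 of Il1r2 (2859), 182 of Msr1 (33.0), 705.5 of Ddah1 (281) and 1472 of Il1rap (582). The immediate early gene Ier3 was the last of the 9, at 442 (137).

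Control 8 stood above the other Camp-high libraries in S100a8 (382335, next 210485), Cebpd (4536, next 2899), Msr1 (2790, next 605), Cd48 (6382, next 5098), Mettl9 (10183, next 6487), Lilrc2 (4021, next 2214) and Alb (11403, next 3102). Control 2 stood above the other Camp-low libraries in Alb (330254, next 71.4), Tf (54857, next 11892) and Car3 (2419, next 61.3). Control 16 was highest of the Camp-low set in Cxcl10 (109, next 41.2), and control 14 lowest of the Camp-high set in Cfd (649, next 1174).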

How the results depend on the processing

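Against 871 higher and 137 lower genes, DESeq2 size factors in edgeR gave 838 and 184, total count scaling 282 and 3 (median log2 fold change of all genes -0.19, from -0.04), no filter on low counts 624 and 28, the run covariate 0 and 0, 4 against 4 libraries 859 and 33, 8 against 8 libraries 1229 and 432, ranking by CPM of Camp 1246 and 127, a slope on log2 Camp over 16 libraries 1613 and 733, and DESeq2's Wald test 1300 and 619 (351 genes without an adjusted p). With single libraries left out the fits gave 332 (without control 4) to 1087 (without control 1) higher and 6 (without control 4) to 240 (without control 15) lower genes. The lower count was also 14 without control 8, 20 without control 7, 36 without control 9, 45 without control 6 and 72 without control 2. Without controls 2 and 8 the counts were 217 and 7, and without controls 2, 7 and 8, a choice made after seeing the data, 42 and 0. The causes were not tested, and the fits with libraries left out also hold fewer samples. Higher genes made up 86.4% of the calls, but 67.7% with DESeq2's Wald test, 68.8% with the slope, 74.0% with 8 against 8 libraries and 98.9% with total count scaling. The shared calls numbered 799 of 871 and 75 of 137 with 8 against 8 libraries, and 855 and 118 with the slope. No call reversed. No per-library measure passed with single libraries left out or with 8 against 8 libraries (lowest adjusted p 0.33). The direction of Alb, never called, changed with the library left out, from -6.43 to 6.56. No paired analysis was possible because all libraries belong to one labelled group and no replicate number is shared by 2 libraries.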

Other observations

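Other gene groups were described for the same 10 libraries, beside 7.24% of all genes called higher and 1.14% lower. Of 15 glucocorticoid-responsive genes tested, Il1r2 was higher and Klf9 and Zbtb16 were lower in the Camp-high libraries, with a median log2 fold change of -0.02. Klf9, a transcription factor induced by glucocorticoids, had 118 ± 34.9 and 206 ± 26.8 normalized counts (SD, n = 5 each) without overlap (log2 fold change -0.80 ± 0.22, SE, edgeR adjusted p = 0.042). Zbtb16, likewise induced, was low in both sets at 7.92 ± 4.83 and 33.1 ± 20.7 (SD, n = 5 each; -2.01 ± 0.52, SE, edgeR adjusted p = 0.036). Tsc22d3 and Fkbp5, which respond to the same hormones, had log2 fold changes of 0.01 ± 0.28 and 0.10 ± 0.35 (SE, edgeR adjusted p = 0.99 and 0.89). The call of Klf9 was lost in 17 and that of Zbtb16 in 14 of 21 alternatives.

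The next counts also stand beside 7.24% of all genes called higher and 1.14% lower. Of 15 immediate early genes tested, Ier3 and Fosl2 were higher (2.53 ± 0.57 and 1.76 ± 0.42 on the log2 scale, SE, edgeR adjusted p = 0.021 and 0.025) and 0 lower, with a median of -0.02. Egr1 and Fos had log2 fold changes of -3.07 ± 1.15 and -1.91 ± 0.92 (SE, edgeR adjusted p = 0.12 and 0.21). Of 15 cell cycle genes, Rrm2 and Pcna were higher and Mcm3 was lower, with a median of 0.01. The call of Rrm2 was lost in 12 of 21 alternatives, and those of Pcna and Mcm3 in 15 each. Rrm2, the small subunit of ribonucleotide reductase, had 3863, 2999, 1532, 5567 and 6305 normalized counts in controls 8, 14, 15, 7 and 9, and 2216, 1122, 377, 609 and 451 in controls 1, 16, 2, 4 and 6, with control 1 above control 15. Mki67 and Top2a, which mark dividing cells, had log2 fold changes of -0.45 ± 0.26 and 0.08 ± 0.39 (SE, edgeR adjusted p = 0.30 and 0.93).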
